A study of Mus musculus with 3 samples.

Results

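Hepatocyte preparations from high-fat diet mice treated with a VLA-4 blocking antibody (the anti-VLA-4 array) were compared with preparations from mice on the same diet treated with IgG (the IgG array), 1 array against 1 of the 3 in the series. Expression was measured on Agilent single-colour (Cy3) arrays. All 3 groups were male wild-type C57BL/6 mice that entered their diet at 6 weeks of age, stayed on it for 16 weeks and were 22 weeks old at harvest. Both groups compared here ate the high-fat diet throughout, and after its first 10 weeks they received the blocking antibody or, as control, IgG into the peritoneum 2 times a week for the remaining 6 weeks. The third group ate standard diet, no injection is recorded for it, and its array is used only to place levels. Hepatocytes came from livers digested with collagenase after an overnight fast. How many mice stand behind an array is not given in the labels.

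VLA-4 is an integrin on lymphocytes, monocytes and other leukocytes, built from the chains encoded by Itga4 and Itgb1. It binds VCAM-1 on activated endothelium and fibronectin in the matrix, and this lets leukocytes leave the blood. In the liver VCAM-1 lies on the sinusoidal endothelial cells, which separate the blood from the hepatocytes, with stellate cells in the space between and Kupffer cells in the lumen. A collagenase preparation of hepatocytes can hold some of each. The hepatocytes themselves make most plasma proteins through their endoplasmic reticulum (ER), and respond to cytokines, fasting, sterols and xenobiotics.

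Each value is the processed signal of a probe divided by the array's 75th percentile over its 43020 non-control spots, called a level here, so a level of 1 is a spot at that percentile. Of 31721 gene symbols with a probe, 18239 were well above background on both arrays and are called measured. A gene was described by its brightest probe. The 4428 measured genes with a mean level at or above the 75th percentile and a probe of at most 50% purines (A or G) are called firm genes, because dim probes rich in purines differed between these arrays in a way described near the end. There were no replicate arrays, so no difference has a test or a replicate check. How far mice, preparations and hybridisations vary is unknown. Calls rest on size alone. The error the scanner software gives for a difference had a median of 0.20 in log2, and it covers a single hybridisation. The IgG and standard-diet arrays came from 1 slide and the anti-VLA-4 array from a different slide, so antibody and slide cannot be told apart. The number of arrays, 1 per group, limits the precision of everything below.

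Spots well above background made up 66.5%, 62.4% and 57.3% of the non-control spots of the IgG, anti-VLA-4 and standard-diet arrays, with 0 saturated spots. Where a probe was spotted repeatedly, its log2 signals had a median SD of 0.11 (IgG) and 0.086 (anti-VLA-4). The 20 hepatocyte markers, led by Alb (albumin), were measured on both arrays with summed levels of 6413 and 6375 on the IgG and anti-VLA-4 arrays, so the labelled cell type was present on both. Their median difference was 0.13 and 19 of the 20 lay within 1.5-fold.

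Most firm genes had nearly the same level on both arrays. The median difference of the 4428 was 0.03 with an SD of 0.32 over genes, and 94.2% lay within 1.5-fold. At least 1.5-fold higher on the anti-VLA-4 array were 187 firm genes (4.22%), and at least 1.5-fold lower were 68 (1.54%), so 73.3% of these differences pointed up. At 2-fold the counts were 35 (0.79%) and 17 (0.384%). Of the genes called higher, 44 had another measured probe, and for 40 of them every probe pointed the same way. This held for 9 of the 10 called lower with another probe. The share pointing up was 66.0% when the median of the firm genes was set to 0, 62.1% when a trend on signal and purines was removed and 91.6% with normexp background correction, which models the background anew. Over all measured genes 6.6% were higher and 13.2% lower at 1.5-fold. Counts of firm or measured list members below are to be set against these shares of firm or measured genes.

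**Figure D1:**
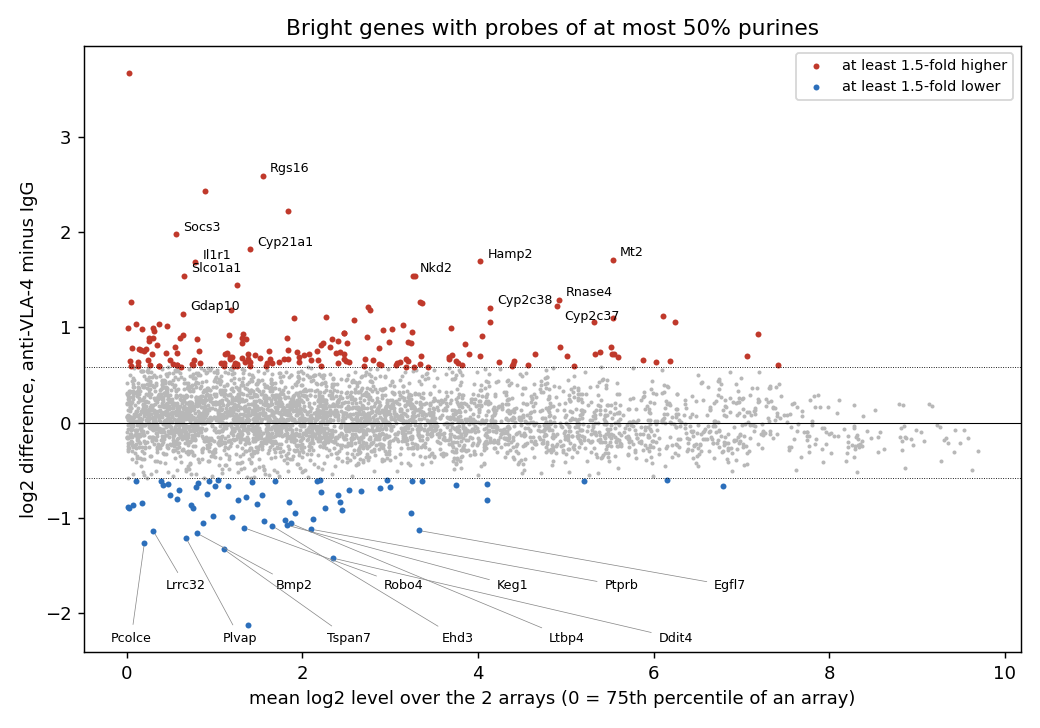
Log2 difference between the anti-VLA-4 and IgG arrays against the mean log2 level of the 4428 firm genes, 1 point per gene, with dotted lines at 1.5-fold. The 187 red points are higher and the 68 blue points lower on the anti-VLA-4 array, and the 12 highest and 12 lowest named genes are labelled; coloured points beyond them are predicted loci, clones or genes whose probes disagreed.

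Named firm genes leave out predicted loci, clones and genes whose probes disagreed, some of which lay further from 0. They were chosen by a difference that holds the IgG array, so the place of standard diet beside IgG partly follows from that choice. The highest named one was Rgs16, which encodes a regulator of G protein signalling (probe on chromosome 1, 155592244 to 155592303, build mm9). Its level was 1.19 (IgG), 7.18 (anti-VLA-4) and 2.39 (standard diet), a difference of 2.59 (scanner error 0.20) or 6.03-fold. The standard-diet array lay between the high-fat diet arrays. Next came Socs3, the feedback inhibitor of cytokine receptors (chromosome 11, 117827480 to 117827539), with levels of 0.744 (IgG), 2.93 (anti-VLA-4) and 1.24 (standard diet) and a difference of 1.98. Il1r1, the receptor for interleukin-1, had levels of 0.957 (IgG), 3.08 (anti-VLA-4) and 2.27 (standard diet) and a difference of 1.69. For both genes the IgG array was the lowest of the 3. Slco1a1, an uptake transporter for organic anions in the hepatocyte membrane, had levels of 0.919 (IgG), 2.68 (anti-VLA-4) and 4.66 (standard diet), so the anti-VLA-4 array lay between IgG and standard diet. Nkd2, an antagonist of Wnt signalling, had levels of 5.6 (IgG), 16.3 (anti-VLA-4) and 7.04 (standard diet) and was 2.91-fold higher.

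The remaining genes of the 12 highest named ones stood above both other arrays. Mt2, a metallothionein that binds zinc and copper, had levels of 25.6 (IgG), 83.97 (anti-VLA-4) and 26.5 (standard diet) (chromosome 8, 96697371 to 96697430), a difference of 1.71. Its neighbour Mt1 was 1.42-fold higher, from 76.4 to 108. Hamp2, a hepcidin gene, had levels of 9.05 (IgG), 29.3 (anti-VLA-4) and 0.685 (standard diet). The steroid hydroxylase gene Cyp21a1 had levels of 1.41 (IgG), 4.97 (anti-VLA-4) and 0.642 (standard diet) and Rnase4, encoding a secreted ribonuclease, 19.3 (IgG), 47.2 (anti-VLA-4) and 26.2 (standard diet). Gdap10 was 2.21-fold higher, and the last of the 12, Cyp2c37 and Cyp2c38, are described with their family.

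At the other end, the lowest named firm gene was Ddit4, a stress-induced inhibitor of mTOR signalling (chromosome 10, 59412486 to 59412545). Its level was 8.35 (IgG), 3.11 (anti-VLA-4) and 3.71 (standard diet), a difference of -1.42 that placed the anti-VLA-4 array near standard diet. Of the other 11, Bmp2, Plvap, Egfl7, Ptprb and Ehd3 belong to the endothelial marker list given below. Robo4, a guidance receptor of endothelial cells, had levels of 3.71 (IgG), 1.73 (anti-VLA-4) and 0.598 (standard diet). Tspan7, a tetraspanin, had levels of 3.42 (IgG), 1.36 (anti-VLA-4) and 0.284 (standard diet) and a difference of -1.33. Pcolce, which enhances procollagen processing, Lrrc32, which holds latent TGF-beta at the cell surface, and Ltbp4, a latent TGF-beta binding protein of the matrix, were 2.39-fold, 2.2-fold and 2.08-fold lower. Keg1 was 2.11-fold lower. In each of these 12 except Ddit4 the order of levels was IgG, anti-VLA-4, standard diet from high to low. As for the highest genes, choice by the difference from IgG bears on where standard diet lies.

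**Figure D2:**
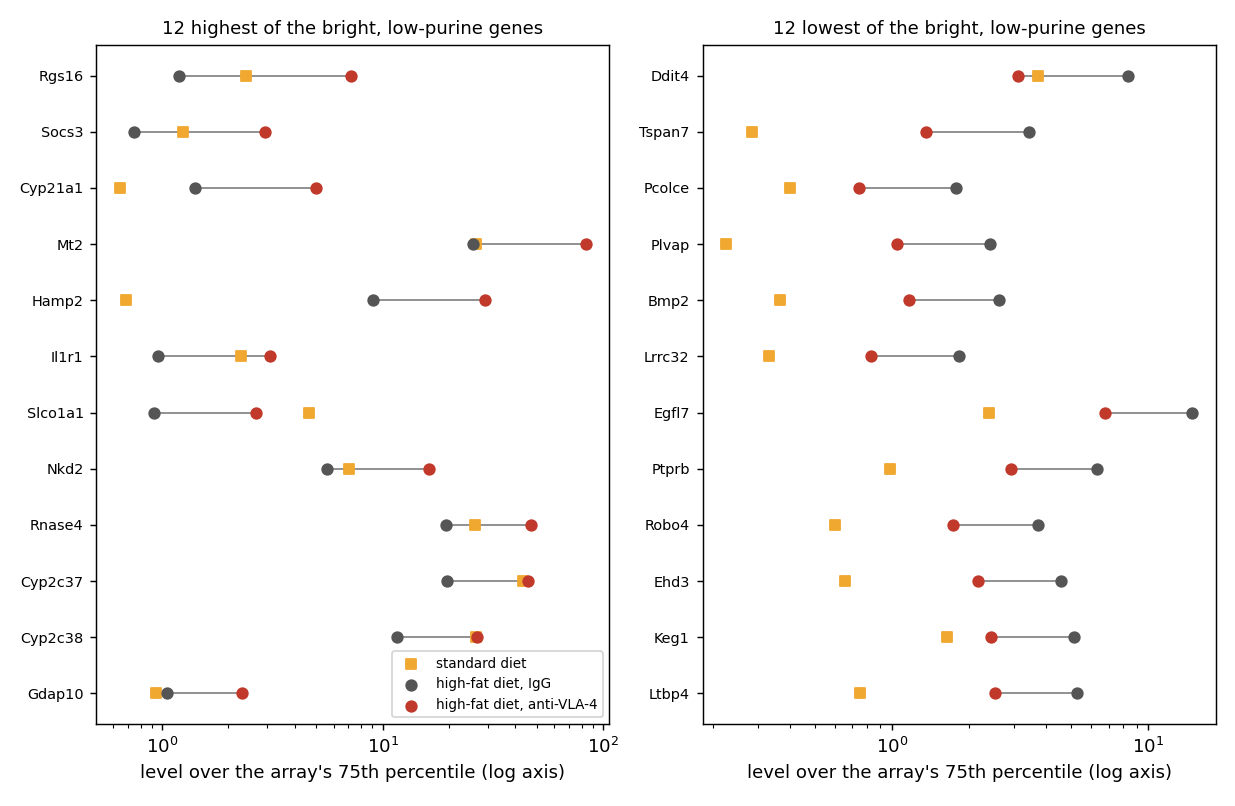
Level over the array's 75th percentile on a log axis for the 12 highest (left) and 12 lowest (right) named firm genes; grey circles are the IgG array, red circles the anti-VLA-4 array and orange squares the standard-diet array, 1 array each. On the right, 11 of 12 genes have the anti-VLA-4 array between the others, while on the left Rgs16, Mt2, Hamp2 and 8 others lie above both, and Slco1a1 does not. Genes were chosen by the anti-VLA-4 minus IgG difference, so where standard diet lies beside IgG partly follows from that choice.

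The chains of VLA-4 lay within 1.5-fold, and its ligands Vcam1 and Fn1 lay apart, the first lower and the second higher. Itga4, the chain that the antibody's target takes its name from, had levels of 0.110 (IgG), 0.0745 (anti-VLA-4) and 0.0209 (standard diet, not well above background). Its difference was -0.56 (scanner error 0.26), within 1.5-fold. Itgb1, the partner chain found on most cells, had levels of 2.32 (IgG), 2.64 (anti-VLA-4) and 2.66 (standard diet), and Itgb7, the other partner of Itga4, 0.122 (IgG), 0.162 (anti-VLA-4) and 0.0293 (standard diet). Vcam1 had levels of 1.42 (IgG), 0.777 (anti-VLA-4) and 0.163 (standard diet) and was 1.82-fold lower (chromosome 3, 115813216 to 115813275). The leukocyte ligand Icam2 lay lower by less, with levels of 2.45 (IgG), 1.45 (anti-VLA-4) and 0.291 (standard diet). Fn1, encoding fibronectin, which hepatocytes secrete into plasma, was 1.62-fold higher with levels of 105 (IgG), 170.4 (anti-VLA-4) and 137 (standard diet). The dim Madcam1 was 1.63-fold higher but at -0.22 with normexp background correction, and Spp1 was 1.27-fold higher. Of 27 measured genes of leukocyte adhesion, 2 were at least 1.5-fold higher and 7 lower, with a median of -0.07. Over all measured genes these shares were 6.6% higher and 13.2% lower, and the median was -0.03.

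Genes of interleukin-6, interleukin-1 and STAT3 signalling held several of the highest firm genes. When interleukin-6 binds its receptor, JAK kinases phosphorylate STAT3, which enters the nucleus and switches on acute phase genes and its own inhibitor Socs3. Of 7 firm members, 4 were at least 1.5-fold higher and 0 lower, against 4.22% and 1.54% of all firm genes, with a median of 0.69. Beside Socs3 and Il1r1 these were Stat3, with levels of 9.12 (IgG), 18.2 (anti-VLA-4) and 10.4 (standard diet) (chromosome 11, 100749598 to 100749657, difference 1.0), and Il1rap, the co-receptor for interleukin-1, with 10.01 (IgG), 16.1 (anti-VLA-4) and 10.5 (standard diet). Pim3, Jak2 and the receptor chain Il6st lay within 1.5-fold, at 0.10, 0.20 and -0.15.

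Members that were not firm went both ways. Pim1, a kinase induced by STAT signalling, had levels of 0.108 (IgG), 0.361 (anti-VLA-4) and 0.181 (standard diet) and Cish, a growth hormone and cytokine feedback inhibitor, 0.234 (IgG), 0.743 (anti-VLA-4) and 1.78 (standard diet). The cytokine gene Il1b was 2.32-fold higher, from 0.112 to 0.259, but lay at -0.042 with normexp background correction. Lower were Socs2, another growth hormone feedback inhibitor, with levels of 0.217 (IgG), 0.116 (anti-VLA-4) and 0.484 (standard diet), the oncostatin receptor gene Osmr at -0.64 and the NF-kappaB subunit gene Nfkb1 at -1.0. Nfkb1 lay at 0.14 by its brightest probe of at most 50% purines. Over the 26 measured members, 7 were higher and 5 lower with a median of 0.09, against 6.6% and 13.2% of all measured genes.

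The promoter of Socs3 is shown with its letters TTCNNNGAA, the form STAT factors bind, in capitals. It is 250 bases before to 50 bases after the RefSeq start (build GRCm38.p6, chr11:117969317-117969616, minus strand).
Socs3: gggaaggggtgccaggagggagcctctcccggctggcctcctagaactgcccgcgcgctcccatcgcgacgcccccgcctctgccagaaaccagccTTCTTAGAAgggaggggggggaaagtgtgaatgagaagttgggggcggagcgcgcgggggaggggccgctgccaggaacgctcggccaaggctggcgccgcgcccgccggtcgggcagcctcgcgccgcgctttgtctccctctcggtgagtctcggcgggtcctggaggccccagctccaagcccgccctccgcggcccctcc
These letters read the same on both strands and stood in 8.3% of 32851 mouse promoters of the same length. They stood in 4 of 23 promoters of the signalling list, those of Socs3, Cish, Tnfrsf1a and Nfkb2, whose measured differences were 1.98, 1.67, 0.50 and -0.27. Among 24 promoters of acute phase genes, 6 had them, with a median of 0.29 against -0.03 for the 18 without. Over all 953 measured genes with these letters, 71 were at least 1.5-fold higher and 116 lower, with a median of -0.0026. These shares lay near the 6.6% and 13.2% of all measured genes.

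Acute phase genes, which encode plasma proteins that hepatocytes make in inflammation, lay mostly within 1.5-fold. Of 18 firm members, 1 was at least 1.5-fold higher, 1 lower and 16 lay between, with a median of 0.23. Over all firm genes 4.22% were higher and 1.54% lower. The gene called higher was Fga, the fibrinogen alpha chain, with levels of 27.7 (IgG), 57.9 (anti-VLA-4) and 37.7 (standard diet). The gene called lower was Saa1, a serum amyloid A gene, with levels of 139 (IgG), 88.1 (anti-VLA-4) and 7.17 (standard diet); its near-identical copies cannot be told apart with certainty. Outside the firm genes, the metalloreductase gene Steap4 had levels of 0.935 (IgG), 2.76 (anti-VLA-4) and 0.485 (standard diet) and Saa4 24.2 (IgG), 42.8 (anti-VLA-4) and 9.13 (standard diet), so both stood higher on the anti-VLA-4 array. Of 17 firm interferon-stimulated genes, 2 were called higher, the transcription factors Irf1 (3.92 (IgG), 7.11 (anti-VLA-4) and 3.3 (standard diet)) and Stat2 (4.51 (IgG), 7.05 (anti-VLA-4) and 4.8 (standard diet)), and 0 lower. Over the 43 measured members 4 were higher and 4 lower, against 6.6% and 13.2% of all measured genes, with a median of -0.02. The others called higher were the antiviral Mx1 and Mx2, at 0.78 and 0.71, the first at -0.11 with normexp background correction. Called lower were Oas1a, with levels of 2.79 (IgG), 1.52 (anti-VLA-4) and 0.242 (standard diet), Irf7 at -0.86, Ifi44 at -1.02 and Oasl2 at -0.75. In that order their probes had 51.7%, 58.3%, 71.7% and 56.7% purines, all above the limit for firm genes. Of the dimmer genes called higher, Mx2 had 65% purines and Mx1 45%. The part of probe composition in these calls was not tested.

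ER chaperones and the genes of ER-associated degradation (ERAD) lay higher on the anti-VLA-4 array almost throughout. Chaperones fold the proteins that enter the ER, ERAD removes those that fail, and sensors such as Atf6 and Ern1 raise both when unfolded protein builds up. All 16 firm members lay above 0, 10 were at least 1.5-fold higher and 0 lower, against 4.22% and 1.54% of all firm genes, with a median of 0.63. Of all 39 measured members, 38 lay above 0, 15 were higher and 1 lower, against 6.6% and 13.2% of all measured genes, with a median of 0.49. The summed level of the list was 740.1 (IgG), 1066 (anti-VLA-4) and 765 (standard diet), so the IgG and standard-diet arrays lay close together. Those arrays came from 1 slide and the anti-VLA-4 array from another, so this order cannot be told apart from a split by slide. Fkbp11, the member called lower, was dim with 78.3% purines, and its difference of -0.82 was 0.083 with quantile scaling and 0.13 with the trend on signal and purines removed.

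Among ERAD genes, Syvn1, the ubiquitin ligase at the centre of the pathway, had levels of 31.7 (IgG), 68.03 (anti-VLA-4) and 34.5 (standard diet) (chromosome 19, 6053583 to 6053642; difference 1.1, scanner error 0.20). Edem1, which hands misfolded glycoproteins over for removal, had levels of 4.01 (IgG), 7.7 (anti-VLA-4) and 3.87 (standard diet). Derl3, a channel component, was the highest member at 2.21, with levels of 1.31 (IgG), 6.09 (anti-VLA-4) and 0.956 (standard diet) by a probe of 51.7% purines. In all 3 the IgG and standard-diet arrays, which share a slide, lay close together and the anti-VLA-4 array above them. Among chaperones, Sdf2l1 had levels of 3.51 (IgG), 6.27 (anti-VLA-4) and 2.93 (standard diet), Creld2, a secreted ER stress protein, 35.9 (IgG), 59.2 (anti-VLA-4) and 36.6 (standard diet), and Hyou1, a large chaperone, 0.214 (IgG), 0.429 (anti-VLA-4) and 0.249 (standard diet). Uggt1, which checks the folding of glycoproteins, was 1.73-fold higher. Hspa5 (BiP), the main ER chaperone, and Pdia6, a disulfide isomerase, were chosen after their values were seen, for the letters in their promoters. They had levels of 139 (IgG), 211 (anti-VLA-4) and 145 (standard diet) and of 58.3 (IgG), 91.3 (anti-VLA-4) and 53.1 (standard diet), again with standard diet close to IgG.

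The promoters of Hspa5, Syvn1, Creld2 and Derl3 are shown because each holds the ER stress response element, CCAAT, any 9 bases and CCACG on either strand, here in capitals. Each runs from 250 bases before to 50 after the RefSeq start in build GRCm38.p6. Hspa5 lies at chr2:34771840-34772139, Syvn1 at chr19:6046326-6046625, Creld2 at chr15:88819396-88819695 and Derl3 at chr10:75893148-75893447, all on the plus strand.
Hspa5: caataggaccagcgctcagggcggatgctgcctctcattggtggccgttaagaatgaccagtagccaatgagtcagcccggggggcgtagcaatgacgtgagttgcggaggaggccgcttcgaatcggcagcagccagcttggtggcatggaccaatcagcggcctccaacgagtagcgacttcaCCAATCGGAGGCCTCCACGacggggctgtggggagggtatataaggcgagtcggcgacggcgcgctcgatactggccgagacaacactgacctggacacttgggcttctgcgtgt
Syvn1: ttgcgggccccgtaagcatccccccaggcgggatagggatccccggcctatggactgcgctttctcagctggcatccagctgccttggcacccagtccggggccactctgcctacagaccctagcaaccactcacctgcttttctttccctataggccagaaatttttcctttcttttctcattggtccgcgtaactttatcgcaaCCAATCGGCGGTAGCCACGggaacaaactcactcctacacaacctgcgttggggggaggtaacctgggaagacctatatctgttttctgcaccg
Creld2: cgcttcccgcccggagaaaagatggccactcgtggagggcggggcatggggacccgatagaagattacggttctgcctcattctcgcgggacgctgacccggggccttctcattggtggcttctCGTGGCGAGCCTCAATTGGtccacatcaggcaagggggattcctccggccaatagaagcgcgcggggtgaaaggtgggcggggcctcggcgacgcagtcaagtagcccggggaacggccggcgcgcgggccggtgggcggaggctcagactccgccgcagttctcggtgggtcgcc
Derl3: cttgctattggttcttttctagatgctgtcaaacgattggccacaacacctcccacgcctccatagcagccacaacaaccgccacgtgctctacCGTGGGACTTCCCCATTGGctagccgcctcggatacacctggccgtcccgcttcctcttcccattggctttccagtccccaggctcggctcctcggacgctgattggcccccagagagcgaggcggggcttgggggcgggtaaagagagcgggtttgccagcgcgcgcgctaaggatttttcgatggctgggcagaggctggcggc
The element begins 65, 44, 126 and 156 bases before the start in these 4, on the plus strand in Hspa5 and Syvn1 and on the minus strand in Creld2 and Derl3. It stood in 39 of 32851 promoters (0.119%) and in 10 of the 32 promoters found for the list. The 10 genes had differences from 0.20 (Calr) to 2.21 (Derl3) with a median of 0.63, and the 22 listed genes without it had a median of 0.42. Over all 21 measured genes with the element, listed or not, 8 were at least 1.5-fold higher and 3 lower, with a median of 0.37. Shares of all measured genes were 6.6% higher and 13.2% lower. The 21 include the 10 listed genes, so this count is not separate from the list. A match of letters is a description and not a bound site.

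Genes of ER translocation and secretion lay higher by less. Of 25 firm members 23 lay above 0 and 24 were within 1.5-fold, with a median of 0.26. The member past 1.5-fold was Spcs3 of the signal peptidase, with levels of 1.89 (IgG), 2.93 (anti-VLA-4) and 2.25 (standard diet). Its other probe gave 1.12-fold higher. Cytosolic and mitochondrial heat shock genes, a separate chaperone system, had a median of -0.13 over 8 firm members, with 0 called.

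The amino acid response driven by ATF4, another arm of ER stress signalling, lay in both directions. Its 12 firm members had a median of 0.23, with 2 at least 1.5-fold higher and 1 lower, and the 31 measured members a median of -0.10. Over all firm genes 4.22% were higher and 1.54% lower. The firm genes called higher were Slc38a2, an amino acid transporter, with levels of 7.03 (IgG), 12.6 (anti-VLA-4) and 5.92 (standard diet), and the secreted stress hormone gene Gdf15, with 10.8 (IgG), 16.9 (anti-VLA-4) and 4.42 (standard diet). The lower one was Ddit4, given above. Chac1, which degrades glutathione, was not firm because of its low signal and had levels of 0.290 (IgG), 1.63 (anti-VLA-4) and 0.187 (standard diet) by a probe of 33.3% purines. Slc7a5, another amino acid transporter, was 2.42-fold higher from a level of 0.0648 and at -0.19 with normexp background correction.

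The promoters of Chac1 (chr2:119350992-119351291, plus strand) and Asns (chr6:7693160-7693459, minus strand, build GRCm38.p6) both hold the letters of the amino acid response element, TGATGNAA on either strand. They are shown because their genes lay apart.
Chac1: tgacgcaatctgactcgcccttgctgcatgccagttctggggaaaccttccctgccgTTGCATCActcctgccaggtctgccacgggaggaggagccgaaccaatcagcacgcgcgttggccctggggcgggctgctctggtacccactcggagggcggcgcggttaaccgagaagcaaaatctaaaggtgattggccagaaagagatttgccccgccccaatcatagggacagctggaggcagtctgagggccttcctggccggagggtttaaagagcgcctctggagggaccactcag
Asns: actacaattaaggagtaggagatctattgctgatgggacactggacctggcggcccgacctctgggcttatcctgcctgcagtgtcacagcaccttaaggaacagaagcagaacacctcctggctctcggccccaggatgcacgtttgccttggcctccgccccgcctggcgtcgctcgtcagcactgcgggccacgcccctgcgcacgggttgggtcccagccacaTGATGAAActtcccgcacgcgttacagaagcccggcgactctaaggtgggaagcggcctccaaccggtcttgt
Asns, asparagine synthetase, was chosen after its value was seen for this contrast, with levels of 0.108 (IgG), 0.0768 (anti-VLA-4) and 0.775 (standard diet) and a difference of -0.49. The letters stood in 3.97% of promoters and in 10 of 31 of the list. The 9 of these 10 genes that were measured had a median of 0.33 and ranged from -0.49 to 2.49, and the 18 measured members whose promoter lacked them had a median of -0.11. Over all 347 measured genes with the letters, 26 were at least 1.5-fold higher and 52 lower, with a median of -0.017. These shares lay near the 6.6% and 13.2% of all measured genes.

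Cytochrome P450 genes of the Cyp2 and Cyp3 families, which oxidise drugs and steroids, were another group with many higher firm genes. Of 20 firm members, counted with the receptors that control them, 19 lay above 0, 10 were at least 1.5-fold higher (4.22% of all firm genes were) and 0 lower, with a median of 0.65. Over 36 measured members, 14 were higher (6.6% of all measured genes were) and 0 lower, with a median of 0.46. Cyp2c37 had levels of 19.5 (IgG), 45.8 (anti-VLA-4) and 43.4 (standard diet), Cyp2c38 11.6 (IgG), 26.8 (anti-VLA-4) and 26.5 (standard diet), and Cyp2c54 46.6 (IgG), 102 (anti-VLA-4) and 91.2 (standard diet). The dim other probe of Cyp2c38 gave 1.12-fold higher. Cyp2c50 had levels of 52.6 (IgG), 109.8 (anti-VLA-4) and 96.3 (standard diet) and Cyp2c39 4.89 (IgG), 9.11 (anti-VLA-4) and 10.9 (standard diet). In these Cyp2c genes the anti-VLA-4 array lay near standard diet and the IgG array lowest. They are near-identical copies in 1 cluster on chromosome 19, so their probes may share signal and are not separate measurements. Nr1i3 (CAR), the receptor that senses xenobiotics, had levels of 10.8 (IgG), 19.2 (anti-VLA-4) and 19.5 (standard diet), the same order. Cyp2b9 differed from this order with levels of 1.33 (IgG), 2.54 (anti-VLA-4) and 0.0935 (standard diet), lowest on standard diet. As a list, the median of IgG minus standard diet was -0.56, a comparison that shares the IgG array with the one described here.

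Other enzyme families lay closer to 0. Conjugating enzymes had 24 firm members with a median of 0.09 and 0 called, and Cyp4 hydroxylases of fatty acids had 8 of 9 firm members above 0 with a median of 0.20. The exception among these was Cyp4b1, called lower with levels of 1.38 (IgG), 0.744 (anti-VLA-4) and 0.169 (standard diet). Of 15 firm transporters, 3 were called higher, Slco1a1, the phosphate transporter family member Slc17a4 (1.96 (IgG), 3.13 (anti-VLA-4) and 1.57 (standard diet)) and the nucleoside transporter Slc29a1 (17.04 (IgG), 26.7 (anti-VLA-4) and 25.7 (standard diet)), and 0 lower. Their median was 0.36. Shares of all firm genes were 4.22% higher and 1.54% lower. The bile acid list had a firm median of -0.04. In it Cyp7a1, the rate-limiting enzyme of bile acid synthesis, had levels of 4.95 (IgG), 2.44 (anti-VLA-4) and 3.06 (standard diet) and Cyp27a1, of the alternative pathway, 2.15 (IgG), 3.25 (anti-VLA-4) and 4.87 (standard diet), so they lay in opposite directions. Nr0b2 (SHP), the repressor of Cyp7a1, was 1.77-fold higher, and Abcb11, the bile salt export pump, 1.75-fold, both with probes of more than 50% purines.

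Cholesterol genes lay mostly above 0 but few were bright. The pathway builds cholesterol from acetyl-CoA under the control of SREBP-2, encoded by Srebf2. Of 5 firm synthesis genes, 1 was called higher, Msmo1, with levels of 4.12 (IgG), 8.7 (anti-VLA-4) and 6.01 (standard diet) and a difference of 1.08. Idi1 and Sc5d lay at 0.50 and 0.46, and Pmvk and Acat2 at -0.08 and -0.11. Of all 20 members, 17 lay above 0, 8 were called higher and 0 lower, against 6.6% and 13.2% of all measured genes. Of the members that were not firm, Sqle, squalene epoxidase, had levels of 0.272 (IgG), 0.859 (anti-VLA-4) and 0.958 (standard diet). All 10 firm genes of cholesterol regulation and transport lay above 0, with a median of 0.34 and 0 called. Stard4 had levels of 1.17 (IgG), 1.68 (anti-VLA-4) and 1.36 (standard diet) and Abca1, the efflux pump, 4.33 (IgG), 5.98 (anti-VLA-4) and 5.31 (standard diet). The dim Srebf2 was 1.8-fold higher but lay at -0.095 with normexp background correction.

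Lipid droplet genes were evenly split among the firm members but lay mostly below 0 over all measured ones. Fatty acid uptake genes lay mostly below 0. Of 8 firm lipid droplet genes, 4 lay above and 4 below 0, with a median of -0.035. Of these, 0 were called higher and 1 lower, Cidec, a droplet fusion protein, with levels of 6.52 (IgG), 3.49 (anti-VLA-4) and 15.9 (standard diet). Cidea, a relative with a brown fat and steatotic liver pattern, was just above the purine limit and had levels of 4.01 (IgG), 1.42 (anti-VLA-4) and 0.0951 (standard diet). Plin5, a droplet coat protein, and Cideb lay in opposite directions at -0.55 and 0.42. Over all 18 measured droplet genes, 5 lay above and 13 below 0, with a median of -0.26. Of the 18, 0 were called higher and 4 lower, against 6.6% and 13.2% of all measured genes. The lower ones were Cidec, Cidea, the dim Lipe at -1.36 and G0s2 at -0.61, the last pair with probes of 60% purines. Of 6 firm genes of fatty acid uptake, 5 lay below 0 and 1 was called lower, the fatty acid binding protein gene Fabp5, with levels of 2.23 (IgG), 1.23 (anti-VLA-4) and 1.08 (standard diet). Fabp4, its relative in adipocytes and macrophages, had levels of 2.71 (IgG), 0.975 (anti-VLA-4) and 0.224 (standard diet). For Cidea and Fabp4, and less so Fabp5, standard diet was the lowest array, but for Cidec it was the highest. Fatty acid oxidation showed no call at all among 34 measured genes, with a median of 0.01, and the 11 firm genes of fatty acid and triglyceride synthesis had 0 calls and a median of 0.25.

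Iron and BMP genes lay in both directions. BMP ligands from sinusoidal endothelial cells act on hepatocytes, where they raise hepcidin and the Id genes. Of 11 firm members, 3 were called higher and 3 lower, against 4.22% and 1.54% of all firm genes. Higher were Hamp2, the zinc and iron importer gene Slc39a14, with levels of 5.41 (IgG), 10.6 (anti-VLA-4) and 5.5 (standard diet), and Id2, with 11.4 (IgG), 17.4 (anti-VLA-4) and 11.5 (standard diet). Lower were the ligand gene Bmp2, with levels of 2.61 (IgG), 1.17 (anti-VLA-4) and 0.365 (standard diet), Id1, with 1.83 (IgG), 1.08 (anti-VLA-4) and 0.802 (standard diet), and Id3, with 6.17 (IgG), 3.05 (anti-VLA-4) and 3.37 (standard diet). Hamp, the main hepcidin gene, was chosen after its value was seen and lay within 1.5-fold, with levels of 107 (IgG), 119 (anti-VLA-4) and 80.2 (standard diet). Hamp2 and Hamp are close copies, and their probes may share signal. Ftl1, the ferritin light chain, was 2.24-fold lower by a probe of 58.3% purines, from 479 to 214.

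Genes of fasting and insulin response were called in both directions. Igfbp1, encoding an IGF binding protein secreted by the liver, had levels of 7.3 (IgG), 35.4 (anti-VLA-4) and 61.2 (standard diet), a difference of 2.28 by a probe of 53.3% purines. The anti-VLA-4 array lay between IgG and standard diet. Irs2, the insulin receptor substrate of fasting liver, had levels of 0.796 (IgG), 1.37 (anti-VLA-4) and 4.55 (standard diet) and Insr, the insulin receptor, 0.885 (IgG), 1.5 (anti-VLA-4) and 1.28 (standard diet). Of 17 firm genes of glucocorticoid response and fasting, 13 lay above 0, 2 were called higher (Irs2 and Mt2) and 0 lower, with a median of 0.29. Over all firm genes 4.22% were higher and 1.54% lower. Over the 31 measured members of this list 5 were higher and 3 lower, against 6.6% and 13.2% of all measured genes, with a median of 0.28. The lower ones were the cell cycle inhibitor gene Cdkn1a, with levels of 1.9 (IgG), 0.956 (anti-VLA-4) and 4.55 (standard diet), the kinase gene Sgk1 at -0.64 and the transcription factor gene Foxo3 at -0.61, which was 0.16 with quantile scaling. Insulin signalling had 12 firm members with 2 called higher (Irs2 and Insr), 0 lower and a median of 0.23. The other probes of Insr gave 1.39-fold and 1.16-fold higher. Of 15 firm glucose metabolism genes, 1 was called, the glucokinase regulator Gckr, with levels of 52.4 (IgG), 81.7 (anti-VLA-4) and 50.6 (standard diet). Egfr, the epidermal growth factor receptor and a male-biased gene of mouse liver, had levels of 4.01 (IgG), 7.7 (anti-VLA-4) and 18.01 (standard diet) by its brightest probe, 1.92-fold higher, but its other probes gave 1.08-fold and 1.19-fold. Hsd3b5, another male-biased gene, had levels of 0.337 (IgG), 0.937 (anti-VLA-4) and 0.853 (standard diet). Of 13 firm male-biased and urinary protein genes, 8 lay above and 5 below 0, 2 were called higher (Egfr and Slco1a1) and 0 lower, with a median of 0.15. Outside the firm genes Gstp1, a glutathione transferase, was called lower at -0.63.

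Markers of sinusoidal endothelial cells were lower in nearly every case. All 29 measured markers lay below 0, 26 were at least 1.5-fold lower (13.2% of all measured genes were) and 0 higher, with a median of -0.98. Of 11 firm markers, 10 were called lower, against 1.54% of firm genes, and the median was again -0.98. The summed level of the list was 99.5 (IgG), 54.9 (anti-VLA-4) and 22.2 (standard diet). In RNA of a mixed preparation, fewer cells of a type and less RNA per cell cannot be told apart.

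Plvap, the protein of fenestral diaphragms, had levels of 2.42 (IgG), 1.05 (anti-VLA-4) and 0.225 (standard diet) (chromosome 8, 74021877 to 74021936), with differences of -1.21 and -0.76 by its 2 probes. Egfl7, a factor secreted by endothelial cells, had levels of 14.8 (IgG), 6.77 (anti-VLA-4) and 2.4 (standard diet). Ptprb, the phosphatase that restrains the VE-cadherin and Tie receptors, had levels of 6.32 (IgG), 2.91 (anti-VLA-4) and 0.980 (standard diet) and Ehd3, an endocytic protein of sinusoidal cells, 4.59 (IgG), 2.16 (anti-VLA-4) and 0.657 (standard diet). Oit3 had levels of 2.78 (IgG), 1.41 (anti-VLA-4) and 0.396 (standard diet). In all of these the anti-VLA-4 array lay between the others. The exception among firm markers was Kdr, the VEGF receptor, at -0.03 by its brightest probe, with levels of 9.25 (IgG), 9.07 (anti-VLA-4) and 9.07 (standard diet); its other probe lay at -0.95. Klf2, the transcription factor of endothelium under flow, is not on the list and had levels of 2.63 (IgG), 1.26 (anti-VLA-4) and 0.244 (standard diet), in the same order.

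Stellate cell and fibroblast markers and matrix genes lay lower too. Of 22 measured markers, 17 were called lower and 0 higher with a median of -0.94, where 13.2% of all measured genes were called lower, and of 6 firm ones 3 were lower and 0 higher with a median of -0.58. The firm markers called were Dcn, a matrix proteoglycan (13.1 (IgG), 6.76 (anti-VLA-4) and 1.39 (standard diet)), Angptl6 (3.8 (IgG), 2.24 (anti-VLA-4) and 1.4 (standard diet)) and the neuropeptide receptor gene Vipr1 (3.98 (IgG), 2.6 (anti-VLA-4) and 0.522 (standard diet)). The dim other probe of Vipr1 lay at 0.23. Colec10 lay at -0.54 and Tagln of smooth muscle at 0.04. Sparc, a matrix glycoprotein, had levels of 19.03 (IgG), 8.2 (anti-VLA-4) and 1.55 (standard diet) by a probe of 53.3% purines. Summed levels were 68.9 (IgG), 36.02 (anti-VLA-4) and 10.2 (standard diet). Of 29 matrix genes, 15 were lower, against the same 13.2%, and 1 higher, which was Fn1, with a median of -0.64. Lgals1 and Anxa2, the other firm matrix genes called, were 1.56-fold and 1.7-fold lower.

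Kupffer cell and macrophage markers differed by less. Of 12 firm markers, 10 lay below 0 and 1 was called lower, Mrc1, which endothelial cells share, with levels of 2.54 (IgG), 1.6 (anti-VLA-4) and 0.353 (standard diet). The median was -0.39 for firm and -0.42 for all 23 measured markers, with 4 of 23 called lower and 0 higher, a lower share near the 13.2% of all measured genes. Marco had levels of 7.24 (IgG), 5.35 (anti-VLA-4) and 0.947 (standard diet) and C1qc, a complement chain of macrophages, 3.33 (IgG), 2.24 (anti-VLA-4) and 0.469 (standard diet). Hmox1, which degrades heme, was the highest at 0.41. Summed levels were 96.1 (IgG), 75.8 (anti-VLA-4) and 20.8 (standard diet), so on this list too the anti-VLA-4 array was between. Lipid-associated macrophage markers, 14 measured, had a median of -0.25, with 4 called lower and 0 higher. Their 6 firm members had a median of -0.19, with 1 called lower. Among those with the largest differences, Trem2, a receptor of these macrophages, had levels of 0.580 (IgG), 0.178 (anti-VLA-4) and 0.00925 (standard diet, not well above background). Ccr2, the chemokine receptor of recruited monocytes, had 0.160 (IgG), 0.0560 (anti-VLA-4) and 0.00825 (standard diet, not well above background). Both were dim. These cells also express genes named above, such as Vcam1, Bmp2, Fabp4 and Id3, and their part in those differences was not tested.

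**Figure D3:**
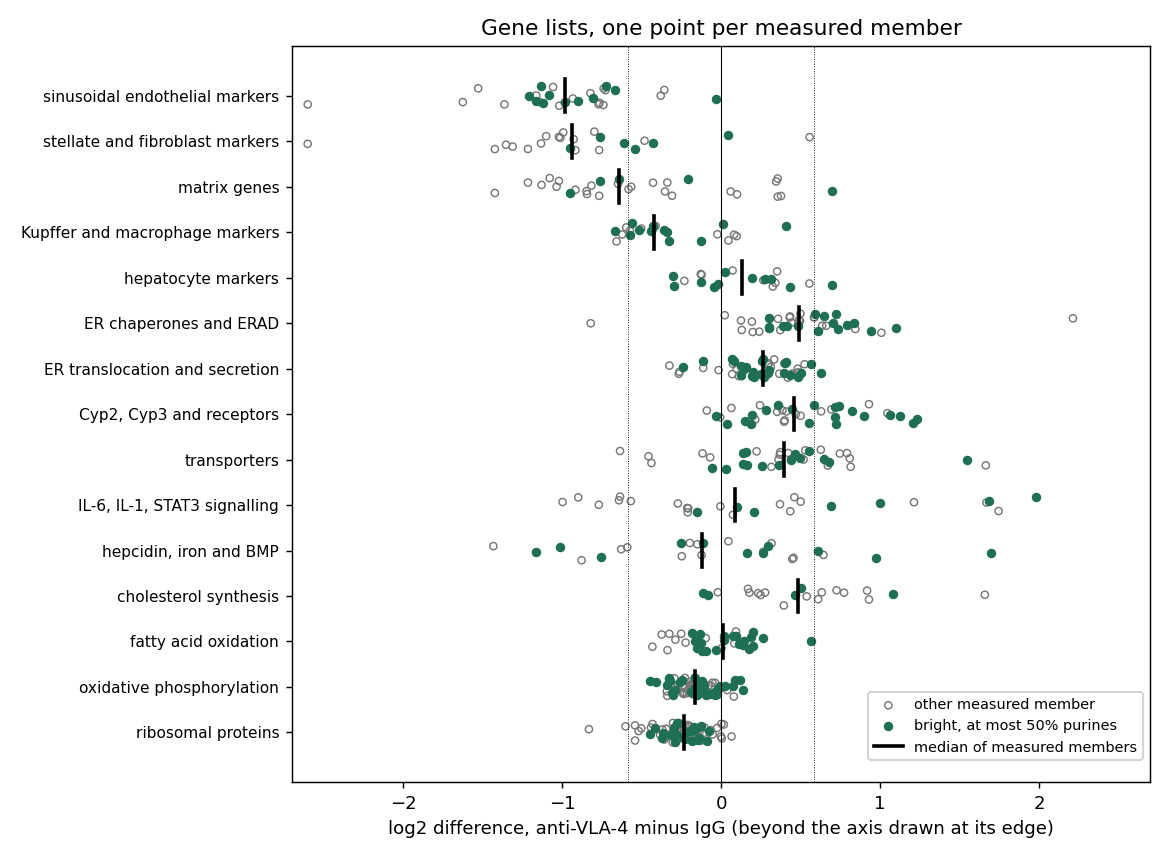
Log2 difference between the anti-VLA-4 and IgG arrays for each measured member of 15 gene lists, with firm members filled, a black bar at the median and dotted lines at 1.5-fold. The endothelial (median -0.98) and stellate (-0.94) lists lie left of 0, the ER chaperone (0.49) and Cyp2 and Cyp3 (0.46) lists right of it, and ribosomal (-0.24) and oxidative phosphorylation (-0.17) genes lie in narrow bands below 0.

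Neutrophil genes and chemokines held a few members with large differences, none of them firm. The alarmin genes S100a9 and S100a8 had levels of 0.383 (IgG), 1.77 (anti-VLA-4) and 0.217 (standard diet) and of 0.102 (IgG), 0.419 (anti-VLA-4) and 0.0369 (standard diet), the highest on the anti-VLA-4 array. Of 9 measured neutrophil and monocyte markers 3 were called higher and 1 lower, with a median of 0.26, and the 2 firm ones lay below 0. The neutrophil chemokine gene Cxcl1 had levels of 0.644 (IgG), 3.48 (anti-VLA-4) and 0.182 (standard diet) by a probe of 61.7% purines. Ccl4, which attracts monocytes and T cells, had levels of 0.0725 (IgG), 0.298 (anti-VLA-4) and 0.00602 (standard diet, not well above background). Cxcl11 lay lower at -1.37, with levels of 281 (IgG), 108 (anti-VLA-4) and 298 (standard diet) by a probe of 63.3% purines, but its other probe lay at 0.23. Over 24 measured chemokine and receptor genes, 3 were higher and 3 lower with a median of 0.06, where 6.6% and 13.2% of all measured genes were. Firm T and NK cell markers numbered 3, with 0 called.

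Some large groups lay on 1 side of 0 by small amounts. All 25 firm cytosolic ribosomal protein genes lay below 0, with a median of -0.22, and all 25 lay within 1.5-fold. Of 35 firm genes of oxidative phosphorylation, 30 lay below 0, with a median of -0.14 and 0 called. Over all members the medians were -0.24 and -0.17, and with normexp background correction they were -0.0095 and 0.069, so the direction of the second turned. Proteasome and lysosome genes had firm medians of -0.01 and 0.07 with 0 called.

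Outside the firm genes the differences followed the base composition of the probe. Past 2-fold, 281 measured genes (1.54%) lay higher and 1258 (6.9%) lower, so 18.3% of these pointed up, against 67.3% among firm genes. With quantile scaling that share was 65.3%, and with normexp 44.2%. Among dim genes, with a mean level under 0.25, 50.2% were at least 2-fold lower where the probe had over 60% purines (median -1.01, 673 genes), and 5.75% where it had at most 40% (median 0.13, 1026 genes). Among genes at or above the 75th percentile these shares were 1.67% and 0.348%. The first 30 bases of a pair of probes for endothelial genes are shown with purines in capitals, to let the compositions be compared.
Wnt2: GAGAAtctGAAAGGGGAAtGGAtGAtctAG
Plvap: tttccAGcctccctcttAAAGGccActAGG
The whole Wnt2 probe has 63.3% purines and gave levels of 0.286 (IgG), 0.0308 (anti-VLA-4) and 0.0196 (standard diet, not well above background), a difference of -3.21. The Plvap probe has 40% and gave the difference of -1.21 above.

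**Figure D4:**
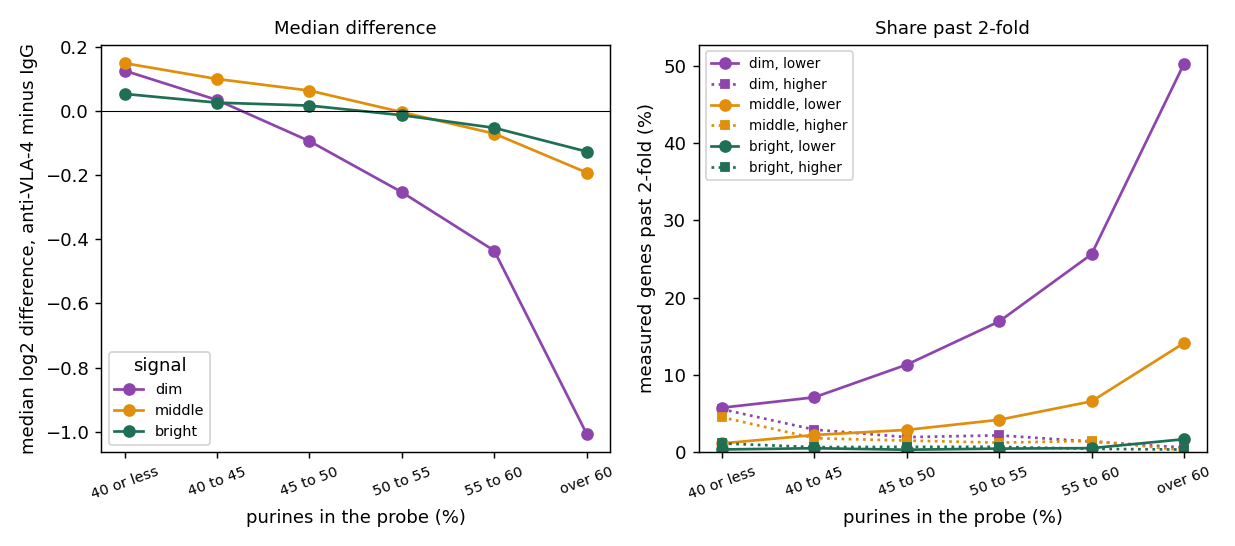
Median log2 difference (left) and percent of genes at least 2-fold lower or higher (right) for 6 bins of purine share in the probe, separately for measured genes with a mean level under 0.25 (dim), from there to under 1 (middle) and at or above 1 (bright). The dim line falls to -1.01 in the bin over 60% purines, where 50.2% of genes were at least 2-fold lower, and the bright lines stay near 0.

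The lowest measured genes outside the firm set all had probes of more than 60% purines. Cracdl had levels of 1.3 (IgG) and 0.0302 (anti-VLA-4), a difference of -5.43, and its other probe lay at -1.04. Cenpi, Celf3, Ffar2, Vpreb2 and Tnk2os were 27.8-fold to 33.9-fold lower, and neither they nor Cracdl exceeded background clearly on the standard-diet array. Pdgfrb, the PDGF receptor of stellate cells, was an exception to this pattern of composition, with 38.3% purines and levels of 0.832 (IgG), 0.0428 (anti-VLA-4) and 0.00590 (standard diet, not well above background). Among the highest, Syt10 had levels of 0.294 (IgG), 3.79 (anti-VLA-4) and 9.66 (standard diet). Neat1, a nuclear noncoding RNA, had 4.34 (IgG), 24.7 (anti-VLA-4) and 29.98 (standard diet) by a probe of 58.3% purines. For both the IgG array was the low one, which partly follows from choice by the anti-VLA-4 minus IgG difference. Malat1, the neighbour of Neat1, had levels of 0.644 (IgG), 1.26 (anti-VLA-4) and 2.47 (standard diet), the same order.

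A further 1450 genes were well above background only on the anti-VLA-4 array and 2938 only on the IgG array, and their folds are lower bounds against the dim array's own signal or its lowest signal above background. A bound of at least 2-fold was reached by 150 of the first and 2528 of the second. The median purine share was 46.7% for the first and 58.3% for the second, with 40.7% of the second over 60% purines. The brightest of the first was Toporsl, at least 9.22-fold higher with a level of 0.291, followed by Cdhr3, Spats1 and Dipk1c. The brightest of the second was Zfyve28, at least 53.8-fold lower from a level of 1.35, followed by Scarletltr, Creg2 and Tmem221, with probes of 56.7% to 60% purines.

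**Figure D5:**
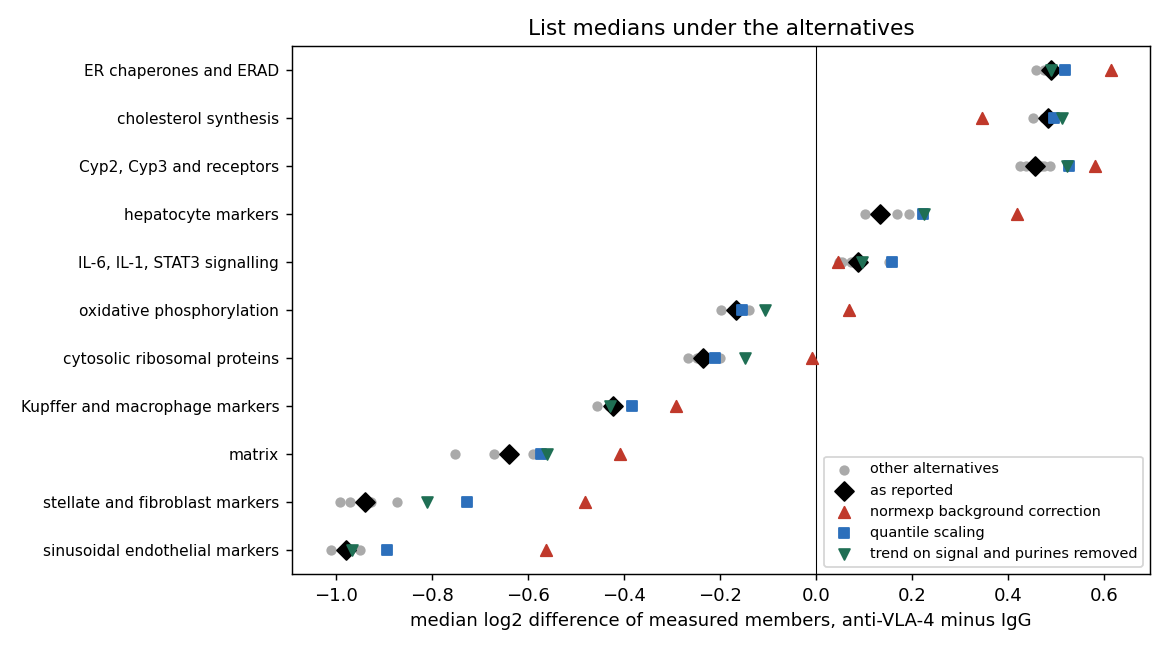
Median log2 difference of the measured members of 11 lists as reported (black diamonds) and under the processing alternatives, with normexp background correction in red, quantile scaling in blue and removal of the trend on signal and purines in green. The endothelial, stellate, matrix and Kupffer medians stay below 0 and the ER chaperone, cholesterol synthesis, and Cyp2 and Cyp3 medians above 0 in all of them, while oxidative phosphorylation turns from -0.17 to 0.069 with normexp.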

How the data were processed

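Of 3 single-colour arrays, the pair of the high-fat diet was compared and the standard-diet array gave levels only. The scanner software, Agilent Feature Extraction version 11.0.1.1 in the submitters' processing notes, made the spot intensities and subtracted their background, per the file headers. The value table the authors deposited holds, for 23206 spots, a linear ratio of that signal to the array's 75th percentile (largest relative deviation 2.0e-08 from the scanner files; column medians 0.79 to 0.81). Every column matched a sample (0 unmatched). Flags on spots, set by the scanner software, are other values in the deposited files.

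Here the log2 of signal over the 75th percentile was taken, non-uniform and population outlier spots were dropped, and repeated spots were averaged per probe. Of 39429 probes, 66.2% were named through a RefSeq accession and the others by the array's names, which can be old; 105 whose chromosome disagreed with RefSeq lost their symbol. The files give probe positions on build mm9. A gene was measured if at least 50% of its probe's spots were well above background on both arrays. A bound for a gene seen on 1 array divides its level by the dim level or, where higher, by the lowest level of a probe well above background.

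The 61 gene lists and the genes described were chosen with earlier results of these data known. Genes were named by rule: the 12 highest and 12 lowest firm genes whose probes agreed, up to 6 members per list with the largest differences, firm ones first, and any member a count of 5 or fewer singles out, the VLA-4 genes, the 6 highest and 6 lowest measured genes that are not firm, and 4 genes per direction seen on 1 array only. Not all of them are named, and a few list members are not reported here. Outside the rule, Hamp, Hspa5, Pdia6, Calr, Asns, Pim3, Tnfrsf1a and Nfkb2 were chosen after their values were seen. The steps were tested on simulated data. Alternatives were quantile scaling, the firm median at 0, cyclic loess, normexp with offset 50, removal of a trend on signal and purines, no filter, other limits for firm genes and folds, the mean over probes, the deposited table and marked spots kept; a preference for probes of at most 50% purines was chosen after seeing the data. Promoters are RefSeq's of GRCm38.p6. Tools were limma 3.58.1 under R 4.3.3, and statsmodels 0.14.6, pandas 2.3.3, numpy 2.4.6 and matplotlib 3.10.9 under Python 3.11.15.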

Additional observations from a re-analysis of the deposited data

Results flagged for a closer look

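Control spots that no comparison used carried a signal on the IgG array. Of 320 spots for the spike-in E1A transcripts, 64.7% were well above background on the IgG array, 12.2% on the anti-VLA-4 array and 10.0% on the standard-diet array, with median processed signals of 28.4, 3.08 and 4.21. The median signals of the 153 negative control spots were 3.93, 2.68 and 3.77 on the same arrays. Of 120 spots for the ERCC spike-in transcripts, 22.5% were well above background on the IgG array, 15.8% on the anti-VLA-4 array and 3.33% on the standard-diet array. The labels do not say whether or how much spike-in RNA was added to each sample, and the part of these signals in the differences above was not tested.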

How the results depend on the processing

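Each result was recomputed with 1 choice changed at a time. Firm counts of 187 higher and 68 lower were 295 and 27 with normexp background correction, and 114 and 35 with a limit of 45% purines. The lower count was 103 at 55% purines, 45 at a 2-fold higher and 137 at a 2-fold lower limit on level. At 2-fold the firm counts were 35 and 17, and at 3-fold 9 and 1. Measured genes past 2-fold, 281 higher and 1258 lower, were 1232 and 655 with quantile scaling, 69 and 87 with normexp, and 1184 and 6370 with no filter on dim spots. The lower count was 751 in the deposited table. At 1.5-fold they were 1203 and 2416, and at 3-fold 47 and 521. In their other alternatives these counts stayed within 1.5 times. The median of all measured genes, -0.03, was 0.08 with quantile scaling, -0.10 with normexp and -0.20 with no filter, and the firm median was 0.17 with normexp.

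With normexp, list medians were -0.56 (endothelial), -0.48 (stellate), -0.41 (matrix), -0.0095 (ribosomal), 0.069 (oxidative phosphorylation) and 0.42 (hepatocyte). The stellate median was -0.73 with quantile scaling. The other medians of the 11 lists plotted by alternative moved by less than the scanner error. Of the 166 genes named, normexp moved 96 by more than the scanner error, left 65 within it and turned the sign of a further 5 that had been past 1.5-fold: Il1b to -0.042, Madcam1 to -0.22, Mx1 to -0.11, Slc7a5 to -0.19 and Srebf2 to -0.095. Over the lists reported, normexp changed the count of members at least 1.5-fold lower by over 1.5 times, or to or from 0, in 38 lists and left it within that in 14, and for the count higher in 24 and 28. With quantile scaling Foxo3 was at 0.16 and Fkbp11 at 0.083, and Fkbp11 was at 0.13 with the trend removed. Nfkb1 was at 0.14 with probes of at most 50% purines preferred. The cause of these changes was not tested.

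No paired analysis was possible because each group has 1 array. No replicate was left out, for the same reason. Signal over background limits the dim genes most, and no alternative addresses the slide, which cannot be told apart from the antibody.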

Other observations

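Genes expressed around the central vein, where Wnt signals from endothelial cells keep hepatocytes in their pericentral state, lay in both directions. Of 10 firm members, 2 were at least 1.5-fold higher, Cyp2c29 with levels of 32.4 (IgG), 54.3 (anti-VLA-4) and 58.2 (standard diet) and Cyp27a1 with those given above, and 2 lower, Cyp7a1 and Glul. Over all firm genes 4.22% were higher and 1.54% lower. Glul, glutamine synthetase, a Wnt target of the last layer of hepatocytes, had levels of 16.9 (IgG), 10.7 (anti-VLA-4) and 16.5 (standard diet). Dimmer Wnt targets also lay lower, but by probes of 55% to 61.7% purines. The ammonium transporter gene Rhbg had levels of 0.885 (IgG), 0.412 (anti-VLA-4) and 0.329 (standard diet), with 56.7% purines. The transcription factor gene Sp5 had 0.152 (IgG), 0.0678 (anti-VLA-4) and 0.232 (standard diet), with 61.7%. The Wnt antagonist gene Nkd1 had 0.247 (IgG), 0.132 (anti-VLA-4) and 0.0372 (standard diet, not well above background), with 55%. The part of probe composition in these differences was not tested. The endothelial ligand gene Wnt2 lay at -3.21, by a probe rich in purines, and Nkd2 lay at 1.54, so the 2 Nkd genes lay apart. On the periportal side, 29 of 31 firm genes of the urea cycle and amino acid metabolism lay within 1.5-fold with a median of 0.03. The exceptions were Cps1, the entry enzyme of the urea cycle, with levels of 25.4 (IgG), 41.3 (anti-VLA-4) and 55.99 (standard diet), and Sdsl, with 12.7 (IgG), 8.3 (anti-VLA-4) and 20.8 (standard diet).

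Secreted and mitochondrial programmes showed few calls. Shares of all firm genes were 4.22% higher and 1.54% lower. Of 25 firm complement and coagulation genes, 1 was higher, Klkb1 (plasma kallikrein) with levels of 27.7 (IgG), 41.9 (anti-VLA-4) and 32.4 (standard diet), and 0 lower, with a median of 0.26. Of 9 firm apolipoprotein and related genes, 0 were higher and 2 lower, Apoa4 with levels of 45.6 (IgG), 29.9 (anti-VLA-4) and 62.6 (standard diet) and Angptl6, with a median of -0.17. Outside the firm genes Angptl8, which inhibits lipoprotein lipase and is raised by feeding, had levels of 46.4 (IgG), 25.5 (anti-VLA-4) and 12.9 (standard diet). Of 38 firm mitochondrial ribosomal protein genes 26 lay below 0, with a median of -0.06 and 0 called. Of 18 firm mitochondrial carriers 1 was called, Slc25a44, a carrier of branched-chain amino acids, with levels of 2.36 (IgG), 3.98 (anti-VLA-4) and 2.64 (standard diet). Its other probe gave 1.15-fold higher. MHC class II genes, high on both high-fat diet arrays, had 3 firm members with 0 called and summed levels of 22.3 (IgG), 21.3 (anti-VLA-4) and 3.13 (standard diet). Of 4 firm circadian clock genes 1 was called, Bhlhe40, with levels of 2.44 (IgG), 3.7 (anti-VLA-4) and 1.08 (standard diet).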
